A study of Mus musculus with 8 samples.

Results

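The genes described here are the mouse ATP-binding cassette (ABC) transporter genes and the genes of 2 organic ion carrier families, Slco and Slc22a. They were chosen by symbol among the protein-coding genes of GENCODE M21 (Abca to Abcg, Slco or Slc22a followed by a number), which gave 50 ABC, 14 Slco and 25 Slc22a genes, or 89 of 21938 coding genes. The measurement was ATAC-seq, in which a transposase cuts accessible DNA, on liver nuclei of adult mice, whose strain is C57BL/6 in the labels and C57BL/6J in the study's methods. Libraries of 50000 nuclei each came from 4 control and 4 Alb-D2KO livers. In Alb-D2KO mice, Cre recombinase driven by the albumin promoter removes floxed Dio2, the gene of the thyroid hormone-activating type 2 deiodinase, from hepatocytes. The titles of the control libraries carry the tag "cre", and the study's methods call the controls of its ChIP-seq Cre controls. Frozen whole liver was used, so the nuclei also include those of other liver cells, and sex and exact age are not given in the sources used here.

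ABC proteins use ATP to move lipids, bile salts and conjugated compounds across membranes, and in the hepatocyte several of them sit in the canalicular membrane and secrete bile. Slco (organic anion transporting polypeptide) and Slc22a (organic anion, cation and carnitine) carriers take compounds up, in the liver mostly across the sinusoidal membrane that faces the blood. Some Slco proteins also carry thyroid hormone.

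The authors deposited 2 lists of regions. The first holds 8031 regions that were called open in the pooled control libraries and overlapped no region called in the pooled Alb-D2KO libraries, named regions of reduced chromatin accessibility (RCA). The second holds 250 regions called only in Alb-D2KO liver. Each region carries its area under the curve (AUC) of −log10 p, which grows with height and width. An RCA is a difference between calls. A region whose Alb-D2KO signal fell just below the calling limit cannot be told apart from a closed region. Because calls were made on pooled libraries, there is no replicate value, no animal can be compared with another, and no test over animals could be run. The lists give no read counts, so the depth of each library is unknown. The 95% Wilson intervals below cover counting error over genes or regions only. Of all coding genes, 25.1% had an RCA within 10 kb. RCAs lay within 10 kb of 5 of 7 hepatocyte marker genes, 0 of 5 Kupffer cell, 2 of 5 endothelial, 0 of 5 stellate, 1 of 5 cholangiocyte and 1 of 5 lymphocyte marker genes, and the part of cell composition in the lists was not tested.

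The sequences at the summits of the 3 member RCAs with the highest AUC are shown first, since AUC, which grows with width as well as height, is the measure used throughout. Each is 61 bases centred on the summit, read from the GRCm38 (mm10) genome of RefSeq on the strand of the gene named. The first lies in an intron of Abca1 (chr4:53139674-53139734, minus strand), the second downstream of Abcb1b on the Abcb4 side (chr5:8873541-8873601, plus strand), and the third at an internal start site of Slco2b1 (chr7:99664686-99664746, minus strand). Capitals mark an inverted repeat described below.
Abca1: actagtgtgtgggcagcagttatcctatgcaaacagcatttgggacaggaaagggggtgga
Abcb1b: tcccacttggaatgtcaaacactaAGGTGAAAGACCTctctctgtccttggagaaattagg
Slco2b1: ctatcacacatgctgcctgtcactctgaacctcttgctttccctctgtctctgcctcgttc

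RCAs lay in or within 10 kb of 32 of the 89 transporter genes (36%, 26.8 to 46.3), against a background of 25.1% of all coding genes. Transporter genes are long, with a median body of 58.5 kb against 17.3 kb for the other 21849 coding genes, and a long gene has more room for a region. Weighted to the lengths of the transporter genes, 30.3% of the other coding genes had an RCA, a value inside the interval of the members. By family, 20 of 50 ABC genes had an RCA (40%, 27.6 to 53.8), 4 of 14 Slco genes (28.6%, 11.7 to 54.6) and 8 of 25 Slc22a genes (32%, 17.2 to 51.6). The length-weighted values of other coding genes were 30.9%, 31.8% and 28.3% in that order, each inside the family's interval. The 3 intervals overlapped. Per Mb of gene body with its 10 kb flanks, the members had 6.05 gene-region pairs and the other coding genes 5.96.

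**Figure D1:**
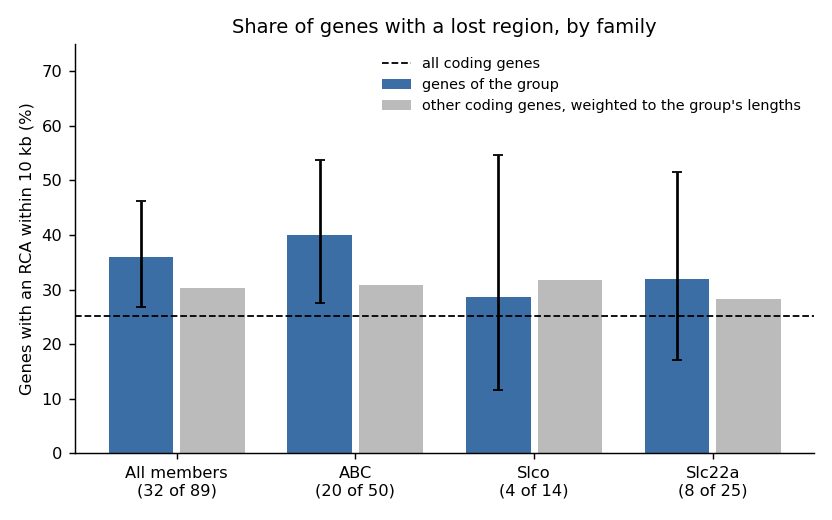
Share of genes with an RCA within 10 kb (%) for all members and for each family (blue bars, with 95% Wilson intervals over genes), beside other coding genes weighted to the same lengths (grey bars) and all coding genes (dashed line, 25.1%). The length-weighted share lies inside the interval in every family, and the ABC bar is the highest at 40%.

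Within length classes the members lay near or somewhat above the other genes. Among genes of at most 20 kb, 5 of 16 members (31.2%) and 20.4% of the others had an RCA. The shares were 27.3% (6 of 22) and 27.7% from 20 to 50 kb, 38.7% (12 of 31) and 31.5% from 50 to 100 kb, and 45% (9 of 20) and 34.8% above 100 kb. No Alb-D2KO-only region lay within 10 kb of a member (0 of 89, with a Wilson upper limit of 4.14%), where the background was 1.01% of coding genes. The nearest lay 37.1 kb from Abcc10.

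RCAs within 200 bp of an annotated start site of the gene itself were found at 11 members (12.4%, 7.04 to 20.8), against a background of 5.94% of coding genes. Weighted to the lengths of the members, 7.48% of the other coding genes had such a region, a value inside that interval. Weighted to the members' numbers of distinct start sites the share was 6.39%, below the interval. Both weightings were added after the results had been seen. When only RCAs with an AUC of at least 300 were used, 4 members (4.49%) had such a region. The share was then 3.14% of all coding genes and 3.92% of the others weighted to length. The 11 were 9 of 50 ABC genes (18%, 9.77 to 30.8), 1 of 14 Slco genes and 1 of 25 Slc22a genes. At 8 of these genes the region lay near the 5′ end of the gene, as at Abca5, Abcb4, Abcb8, Abcc3 and Slc22a18. At Abca4, Abcg2 and Slco2b1 it lay at a start site inside the gene, with its summit 30.1, 11.8 and 46.6 kb from the gene start. When only protein-coding transcripts were used to define starts, 9 members (10.1%, 5.41 to 18.1) had an RCA at an own start. The 5.94% background lies inside that interval, but it was not recomputed with those starts. By that definition 10 of the 48 RCAs near members remained promoter regions (20.8%) in place of 16 (33.3%).

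The 32 genes shared 48 distinct RCAs in 50 gene-region pairs, since a single region served Abcg5 and Abcg8, and another Slc22a13 and Slc22a14. Of the 48, 35 overlapped a member's body, 6 lay upstream and 7 downstream, and 10 also had a coding gene outside these families within 10 kb. By position, 16 were promoter regions (33.3%, 21.7 to 47.5), 4 exonic, 18 intronic (37.5%) and 10 intergenic (20.8%), whereas RCAs near other coding genes were 22.9% promoter, 11.9% exonic, 47% intronic and 18.1% intergenic. Of the 16 promoter regions, 12 were at a start of the member and 4 at that of another gene only. The AUC of the 48 had a median of 281.2 with quartiles of 234.5 and 323.9, close to 279.6 (233.3 to 354.9) near other coding genes. Median AUC was 282.9 for ABC, 237.0 for Slco and 286.8 for Slc22a regions. An AUC of at least 300 was reached by 17 of 48 (35.4%) and by 41.6% of RCAs near other coding genes.

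**Figure D2:**
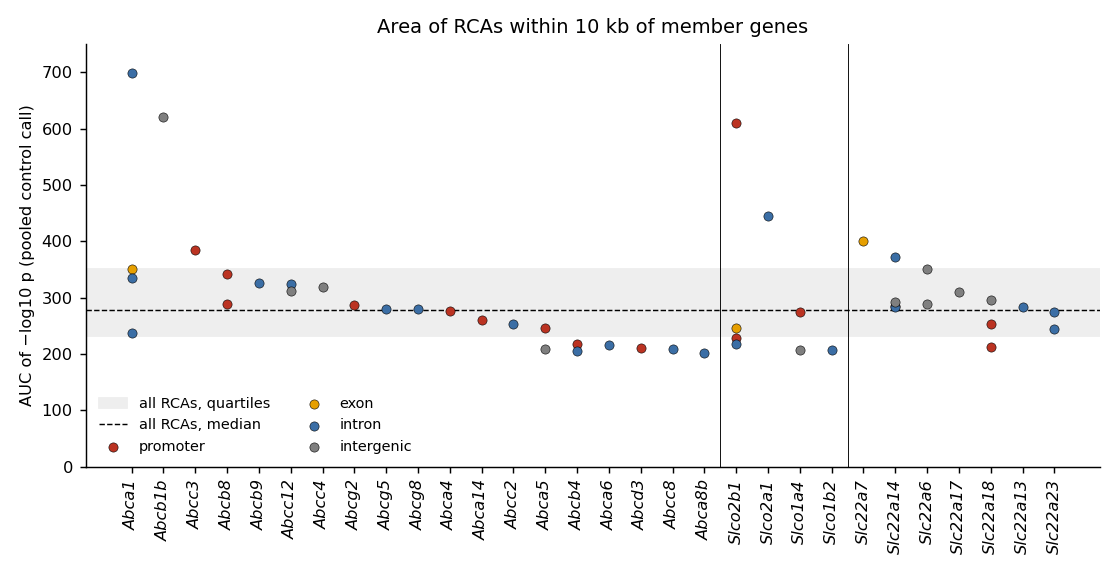
AUC of −log10 p in the pooled control call for the RCAs within 10 kb of the members shown (points, coloured by class), by gene, with ABC, Slco and Slc22a genes from left to right. The dashed line and the grey band are the median and quartiles of all RCAs. The top points, 697.7 at Abca1, 621.0 at Abcb1b and 609.5 at Slco2b1, stand far above the band, and most other points lie in it.

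Canalicular exporters had RCAs at 6 of 8 genes: Abcb4, Abcc2, Abcg2, Abcb1b, Abcg5 and Abcg8, of which the last pair share a single region. The share over all coding genes was 25.1%, and 30.3% when weighted to the members' lengths. Abcb4, the phosphatidylcholine floppase of bile, had a region at its start site with an AUC of 217.5 (chr5:8893825-8894316) and an intronic region 11.1 kb into the gene with an AUC of 205.9. Abcb1b, a multidrug exporter (P-glycoprotein), had a single intergenic region 6857 bp beyond its 3′ end (chr5:8873172-8873814) with an AUC of 621.0, above 98.1% of all RCAs. The same region lay 19.9 kb upstream of Abcb4. These 3 regions carried consecutive numbers in the control call, 5703, 5704 and 5705, so no other control region was called between them.

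Abcc2, which secretes bilirubin glucuronides and other conjugates, had an intronic region with an AUC of 253.8 (chr19:43797206-43797553). Its summit was 15.2 kb from the gene start, and the region lay 433 bp from the start of a non-coding transcript of Abcc2. Abcg2, the breast cancer resistance protein, had its region 117 bp from an internal start, with an AUC of 286.0 (chr6:58596092-58596413). Abcg5 and Abcg8 encode the partners of the sterol exporter. They are transcribed in opposite directions, and their annotated bodies overlap. Their shared region (chr17:84683403-84683658, AUC 279.8) lay 392 bp upstream of Abcg5. It was inside an intron of Abcg8, 272 bp from an annotated start of a protein-coding Abcg8 transcript. Its summit sequence, shown because it belongs to both genes, reads on the minus strand of chr17:84683425-84683485 as follows.
Abcg5 and Abcg8: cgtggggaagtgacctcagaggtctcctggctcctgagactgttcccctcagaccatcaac

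No RCA lay near Abcb11, the bile salt export pump, whose nearest was 292.5 kb away, nor near Abcb1a, at 124.6 kb. Up to 5 other control regions could lie near each of these genes.

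Sinusoidal uptake carriers of organic anions had RCAs at 4 of 5 genes, beside 25.1% of all coding genes. Weighted to the lengths of all 89 members, not of these 5 genes, it was 30.3% of the other coding genes. This list, too, was drawn up with earlier results of these data known, and its share was not tested. Slco2b1, an uptake carrier for steroid sulphates and drugs, had 4 RCAs. The strongest (chr7:99664565-99665071, AUC 609.5, above 98% of all RCAs) overlapped a coding exon, an internal start of Slco2b1 and the start of the antisense gene Gm15635. The others had AUCs of 245.9 in the terminal exon, 228.0 at the start of the antisense gene Gm34280, and 217.7 in an intron. Slco1b2, the mouse counterpart of the human hepatic OATP1B carriers, had an intronic region 11.2 kb from its start with an AUC of 207.4 (chr6:141640666-141640942). Slco1a4 had no region in its body. It had an upstream region at 1629 bp with an AUC of 207.2, and a further one at 9885 bp, at the start of the lincRNA Gm30784, with 273.7. Slc22a7, the hepatic organic anion transporter OAT2, had an exonic region (chr17:46436842-46437312) with an AUC of 399.6. Its summit was 1.53 kb from the gene start, and the region lay 317 bp from an annotated start inside the gene. Slco1a1 had none, and its nearest RCA was 38.2 kb away. Of the 5 Slco genes listed as thyroid hormone carriers, 2 had an RCA (Slco1a4 and Slco1b2), beside 25.1% of all coding genes. Slco1c1, Slco1a1 and Slco4a1 had none, and 5 genes are too few to show a difference. Slco2a1, the prostaglandin transporter, had an intronic region 7.69 kb from its start with an AUC of 444.8, above 89.8% of all RCAs.

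**Figure D3:**
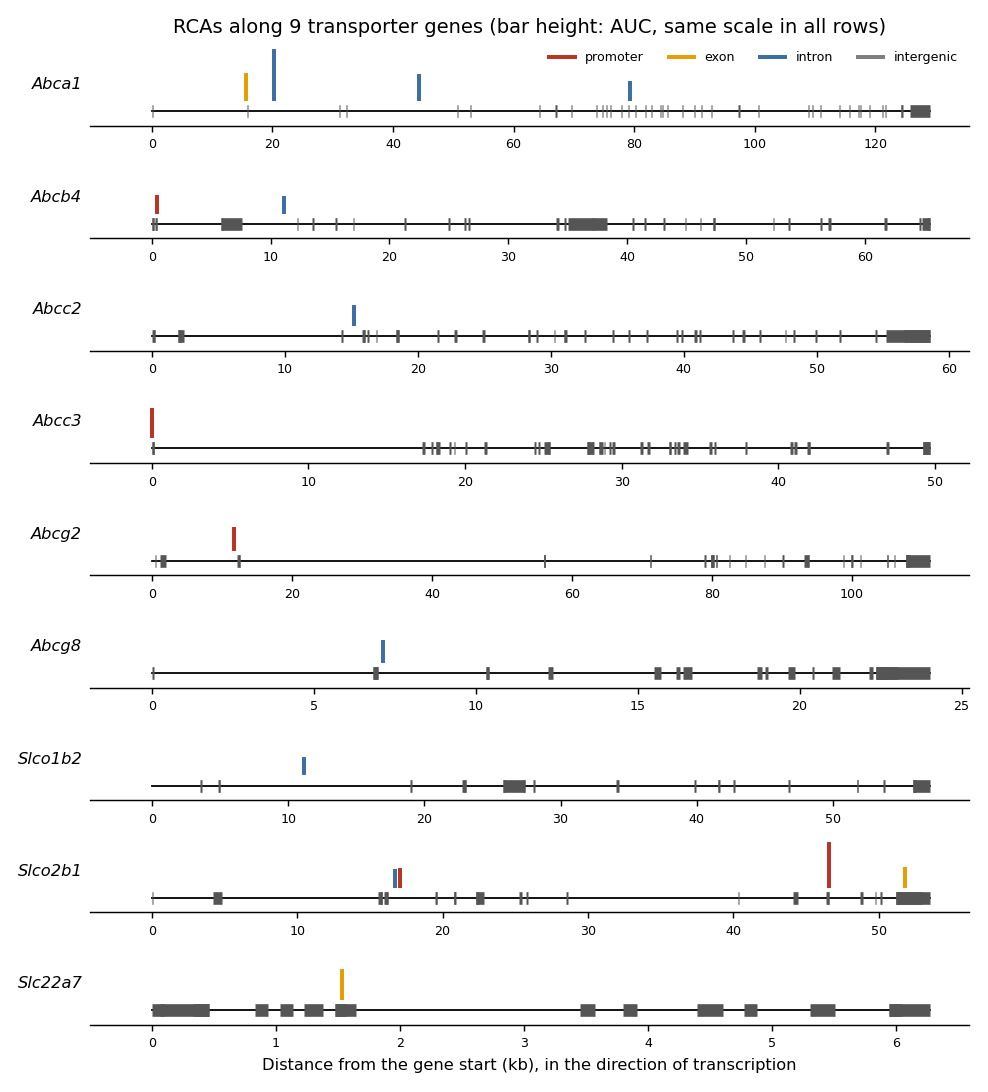
RCAs along 9 transporter genes, drawn against the distance from the gene start in kb in the direction of transcription. Grey boxes are exons, and coloured bars mark RCA summits with a height proportional to AUC on the same scale in all rows. The 4 regions of Abca1 lie between 15.6 and 79.4 kb from the gene start, and Abcc3 has its region at the start.

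Among sterol and lipid exporters 1 of 4 genes, Abca1, had RCAs, near the 25.1% of all coding genes. Abca1, which loads cholesterol onto apolipoprotein A-I, had 4 regions, all inside the gene and none at a start site. Their AUCs were 351.5 at 15.6 kb from the start, 697.7 at 20.2 kb (chr4:53139375-53139938, above 99.1% of all RCAs), 335.2 at 44.3 kb and 236.6 at 79.4 kb. The 4 were numbered 4396 to 4399 in the control call, so no control region between them escaped the list. Up to 7 other control regions could lie outside that stretch, up to the flanking RCAs. The summed AUC of the 4 RCAs, 1621.1, was the highest of the 89 genes. Abca7, Abcg1 and Abcg4 had none within 10 kb, with nearest distances of 12.7, 20.5 and 110.6 kb.

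Sinusoidal exporters, which return conjugates to the blood, had RCAs at 2 of 5 genes. The share was 25.1% of all coding genes, and 30.3% of the other coding genes weighted to the lengths of all 89 members. No weighting to the lengths of these 5 genes was made, and 5 genes are too few to show a difference. Abcc3 had a region over its start site (chr11:94392550-94393110) with an AUC of 384.0, and at most 1 further control region. Abcc4 had an intergenic region 8177 bp upstream with an AUC of 318.7. Abcc1, Abcc5 and Abcc6 had none.

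Among organic cation carriers, Slc22a2 and Slc22a3 had no RCA. None of the 4 carnitine carrier genes (Slc22a4, Slc22a5, Slc22a21 and Slc22a16) had an RCA within 10 kb, where 25.1% of all coding genes did, a difference that 4 genes cannot show, with the nearest to Slc22a5 at 12.6 kb. Slc22a6, an organic anion exchanger best known in the kidney, had 2 regions downstream with AUCs of 288.7 and 350.7. Slc22a18 had 3 regions, of which 2 were at its own starts (AUC 252.4 and 212.0) and 1 lay 9553 bp upstream (295.7). Slc22a14 had 4 regions, but its annotated body of 196.1 kb runs across Slc22a13, Acaa1a and Xylb. Its strongest region (AUC 372.7) lay in Xylb as well, and another (284.9) at the start of Acaa1a, so assignment to Slc22a14 is uncertain.

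Abcb8, which encodes a mitochondrial ABC transporter, had an RCA at its start site with an AUC of 340.9. A further region of Abcb8 (288.7) lay at the start of its neighbour Atg9b. Abcd3, a peroxisomal transporter of long-chain and bile acid-related acyl-CoA, had a region near its start with an AUC of 210.7, while Abcd2 and Abcd4 had none. The 4 genes Abce1, Abcf1, Abcf2 and Abcf3, whose products bind ATP but transport nothing, had none either, beside 25.1% of all coding genes. Of the channel regulators, Abcc8 had a region (AUC 207.9) 8155 bp downstream, inside the channel gene Kcnj11, and Abcc9 had none. Abcc12 had 2 regions, with AUCs of 323.5 and 312.3. Slc22a23 also had 2, with 243.4 and 274.9. Abcb9, with a single intronic region, had an AUC of 325.1. Abca4, best known as the retinoid transporter of photoreceptors, had its region (AUC 276.8) at the start of a non-coding transcript, and Abca14 had an AUC of 259.6 at its start. Slc22a17 had an intergenic region 5605 bp downstream with 309.4, and the region shared by Slc22a13 and Slc22a14 had 282.5.

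The following 2 gene clusters held RCAs with no other control region between them. In the Abca8b to Abca5 cluster on chromosome 11, which encodes lipid transporters of the ABCA subfamily, 4 RCAs numbered 15060 to 15063 in the control call followed each other across 5 genes. They had AUCs of 201.4 at Abca8b, 216.5 at Abca6, and 209.5 and 246.4 at the 3′ and 5′ sides of Abca5. The first 3 of these AUCs lie near the lowest in the list, at percentiles 1.22, 13.6 and 8.03 of all RCAs, and the fourth at 33.9. In the Slco1 cluster on chromosome 6, the RCAs of Slco1b2 and Slco1a4, numbered 8183 to 8185, also followed each other, with AUCs at percentiles 6.43, 6.29 and 48.2. Whether the low-AUC regions were closed or just below the calling limit in Alb-D2KO liver cannot be told from the lists. The control call is numbered along each chromosome, so the gaps between RCA numbers give the control regions that were not listed as lost. The authors left out a blacklist of sites that had been called in individual libraries, and any of these sites that had received a number would count here as a region not listed as lost. By this count 5 of the 32 members with an RCA (15.6%) could have no other control region within 10 kb: Abca5, Abca6, Abca8b, Slco1b2 and Slco1a4. Among other coding genes it was 198 of 5425 (3.65%). The 5 genes lie in 2 clusters and share neighbours, so they are not independent of each other.

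**Figure D4:**
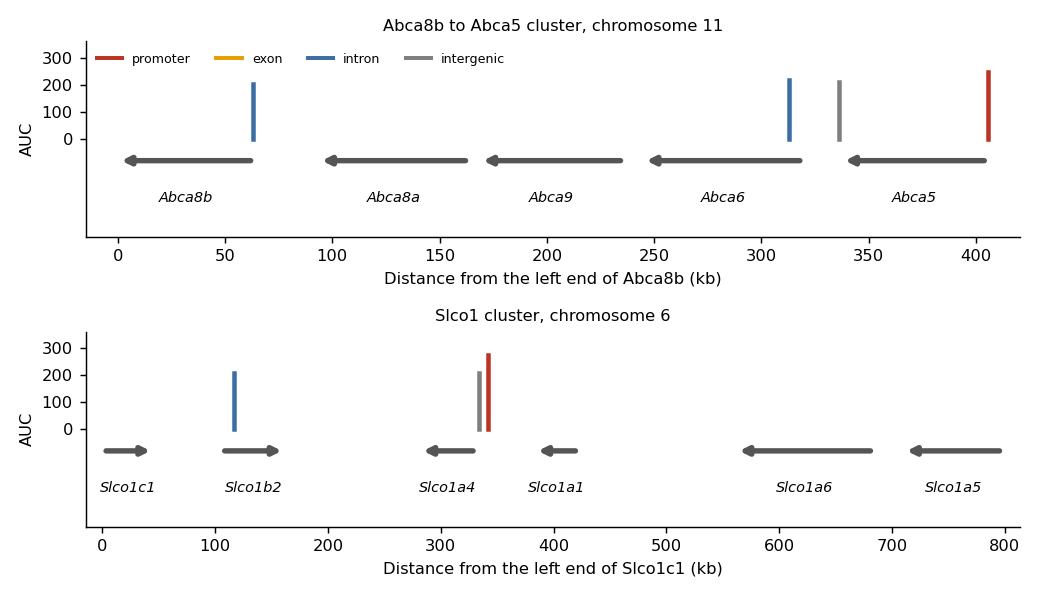
The Abca8b to Abca5 cluster (top) and the Slco1 cluster (bottom), drawn against the distance in kb from the left end of the first gene. Arrows are genes in the direction of transcription and bars are RCAs with their AUC, coloured by class. No other control region was called between the first and the last bar of each cluster.

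Between the RCAs of the same gene, 8 of the 11 members with more than 1 RCA had no other control region (72.7%, 43.4 to 90.3), and 56.5% of such other coding genes had none, inside that interval. The exceptions were Slc22a14 with 4, and Slco2b1 and Abcc12 with 1 each. Most genes could have kept others, and for Abcb8 and Abca14 the upper bound was 14. Of the 57 members without an RCA, 56 had an RCA on both sides, and 8 of these (14.3%) had no control region at all up to those RCAs, against 629 of 15885 other coding genes (3.96%). They were Abca8a, Abca9, Abcc9, Slc22a16, Slc22a2, Slc22a3, Slc22a8 and Slco1c1. No region was called there in control, so none could be listed as lost. Abca8a and Abca9 are neighbours, as are Slc22a2 and Slc22a3, so these 8 genes are not independent of each other either.

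**Figure D5:**
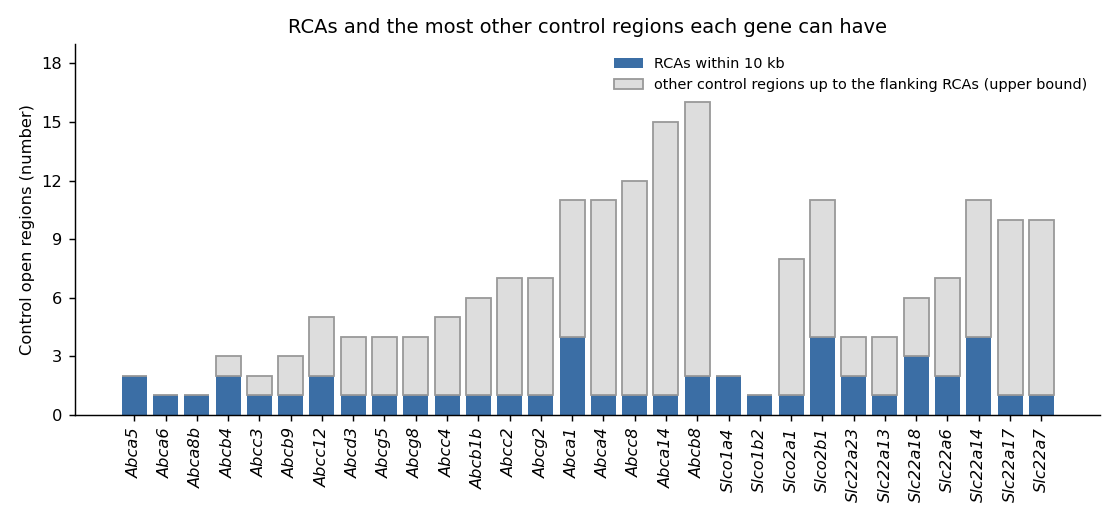
RCAs within 10 kb of the members shown (blue) and, stacked above, the most other control regions that the numbering of the control call allows up to the flanking RCAs (grey, an upper bound). Abca5, Abca6, Abca8b, Slco1a4 and Slco1b2 have no grey part.

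Short sequence motifs of liver factors were searched in the 48 regions on both strands, and a match is a description of letters, not a site of binding. The direct repeat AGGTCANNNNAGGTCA (DR4, used by thyroid hormone receptors and LXR) with up to 2 mismatches was in 3 regions (6.25%), against 7.11% of all 8021 RCAs on the main chromosomes. The stretches are printed because Dio2 acts on thyroid hormone, with the match in capitals and on the strand of the match. They lie at chr4:53080365-53080394 (plus), chr17:46437234-46437263 (plus) and chr19:8631036-8631065 (minus).
Abca1: ccagtatAGCCCAGCTGAGGTCAtctccaa
Slc22a7: ctgccaaGGGCCATGCGAGGTCAggtcccc
Slc22a6: gtaggagAGGCCATGCGAGGACAcgatggg

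With 1 mismatch fewer, no DR4 match was left in the member regions. The inverted repeat AGGTCANTGACCT (IR1, the arrangement used by the bile acid receptor FXR) with up to 2 mismatches was in 3 member regions (6.25%) and 4.03% of all RCAs. In the strong region between Abcb1b and Abcb4 its centre lay 0 bp from the summit, as the capitals in the Abcb1b sequence above show. The other matches were in the regions of Abca4 and Slco1b2. No IR1 match was left with 1 mismatch fewer. The direct repeat AGGTCANAGGTCA (DR1, used by HNF4 and PPAR; up to 2 mismatches) was in 5 regions (10.4%, against 13.6%) and the C/EBP letters TTGCGCAA with up to 1 mismatch in 4 (8.33%, against 10.7%). A C/EBP match lay 13 bp from the summit of the Slco2a1 region, and no C/EBP match was left with 1 mismatch fewer. The HNF1 letters GTTAATNATTAAC with up to 2 mismatches were in none of the 48, for which the interval reaches 7.41%, and in 4.81% of all RCAs.

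The letters CCANNAGNNGG, part of the consensus of the insulator protein CTCF, were added after the summit sequences had been seen. They were in 10 member regions (20.8%, 11.7 to 34.3), against 19.1% of all RCAs. The 5 regions with a match closest to the summit are shown. Since the letters were picked from summit sequences, that closeness is no finding. They are aligned below on the strand of the match, with the match in capitals, from chr5:24393517-24393545 (minus), chr5:124085005-124085033 (minus), chr7:46096264-46096292 (plus), chr7:143464072-143464100 (minus) and chr17:46436907-46436935 (plus).
Abcb8: gtccactgtCCACCAGGGGGtgctgtttc
Abcb9: gcttctcatCCAGCAGAGGGcgccatttc
Abcc8: cctctgtggCCAGCAGGTGGcaccataac
Slc22a18: tcaagtcggCCACCAGGGGGcagcatgaa
Slc22a7: ccctcctgtCCAGAAGGTGGtgctgatga

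The SP1 letters GGGCGGG, with no mismatch, were in 3 member regions (6.25%, against 12.8%): those of Abca5, Abcc3 and Slc22a18. The Abca5 region (chr11:110337578-110337915) had the highest GC content of the 48, 72.8% against a median of 52.3%. The 250 bases before the Abca5 start in the RefSeq promoter table (GRCm38, chr11:110337717-110337966, minus strand), which this region overlaps, held 4 SP1 matches, shown in capitals. Of all 32851 promoter entries, 23.4% held at least 1.
Abca5: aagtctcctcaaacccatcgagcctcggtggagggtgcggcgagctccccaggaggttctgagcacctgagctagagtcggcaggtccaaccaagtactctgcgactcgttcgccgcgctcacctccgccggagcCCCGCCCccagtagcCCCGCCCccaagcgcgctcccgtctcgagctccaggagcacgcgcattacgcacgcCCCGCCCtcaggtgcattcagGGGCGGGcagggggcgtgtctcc

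Outside these families, 33 genes were listed, mainly for bile acid synthesis, bile acid sensing and organic ion handling. Of these, 22 had an RCA within 10 kb, beside 25.1% of all coding genes, and 8 at their own start, beside 5.94%. None had an Alb-D2KO-only region, beside 1.01%. The list was drawn up with earlier results of these data known, and it holds mostly liver-expressed genes. It also holds Tap1, Tap2, Tapbp, Cftr and the carriers Slc7a5 and Slc7a8, and Tap1 and Tap2 share a single region. Slc10a1, the sodium-dependent bile acid uptake carrier, had an intergenic region with an AUC of 470.5. Atp8b1, a canalicular phospholipid flippase, had 5 regions with AUCs from 253.4 to 481.8. Nr1h4, which encodes FXR, had 4 regions up to 550.1, including its start. Nr1i2, which encodes the xenobiotic receptor PXR, had 6 regions up to 458.7, and Hnf4a had 6 up to 737.1. Fgfr4, the receptor through which the gut hormone FGF15 limits bile acid synthesis, had its strongest region at the start with 748.8. Slc16a10, a thyroid hormone and aromatic amino acid carrier, had an intronic region with 550.0. Cyp7a1, the rate-limiting enzyme of bile acid synthesis, had none, whereas Cyp8b1, Cyp7b1 and Cyp27a1 had 3, 1 and 3 regions.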

How the data were processed

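Adult liver ATAC-seq libraries (4 control, 4 Alb-D2KO) were processed by the authors. They removed adapters with NGmerge, aligned to mm10 with BWA 0.7.17, dropped duplicate, chimeric and poorly mapped alignments, called regions with Genrich 0.6 on pooled libraries without the sites of a blacklist built from individual libraries, and subtracted the regions of the other genotype. Tool versions are from the submitters' processing notes. In the deposited lists the signal is the AUC of −log10 p, the deposited score is that area per bp (times 1000, capped), and the deposited −log10 p and −log10 q are those of the summit. The signal was used to describe regions, and score, −log10 p and −log10 q only to check the format. The summit offset placed the sequences. Pooling removes replicate error, and depth is not given.

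Regions were assigned to GENCODE M21 coding genes on 21 chromosomes (the study's methods name another release) by overlap with the body or its 10 kb flanks, and classed as promoter (200 bp around any start), then exon, intron or intergenic. Other genes were weighted to the members' lengths in 10 bins. Motifs were scanned in the GRCm38 genome, and 72 of 89 members were in the RefSeq promoter table. Scripts (Python 3.11.15, pandas 2.3.3, pysam 0.24.0, samtools 1.23.1) were tested on simulated data. The members, lists, motifs and the rule for named genes were chosen with earlier results of these data known. That rule took members with an RCA at an own start, the 10 with the most RCAs, the 10 with the largest summed AUC, the 10 RCAs of highest AUC, and all canalicular, sinusoidal uptake and sterol genes. The other members of the fixed lists are named as list members, and Abcb9 and the motif and cluster genes were named after their values were seen. No test across genes was made, and the study's RNA-seq, methylation and Hi-C data were not analysed here. Results for some genes are not reported here, in the text or the figures, although the counts include them.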

Additional observations from a re-analysis of the deposited data

How the results depend on the processing

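Of 97 comparisons of a value with an alternative, 67 stayed within the value's interval (counts within 1.5 times) and 30 moved. With AUC of at least 300, the share of members with an RCA was 15.7% (17 regions, median AUC 350.7) and the length-weighted share of other genes 15.5%. The share with an RCA at an own start was then 4.49%, beside 3.14% of all coding genes and 3.92% of the others weighted to length, and the ABC and Slc22a shares were both 16%. Within 50 kb, the share was 57.3% (97 regions) against 47.6% weighted, with 60% for ABC and 64% for Slc22a. Within 10 kb of the gene start only, it was 20.2% (21 regions) against 16.2% weighted, with 26% for ABC, 12% for Slc22a, and a promoter share of 52.4%. The promoter share was 47.9% with a window of 1000 bp, 60.4% with 3000 bp and 20.8% with protein-coding transcripts only. Motif shares with 1 fewer mismatch were 0% for DR4, IR1 and C/EBP and 2.08% for DR1. Within 100 bp of the summit they were 2.08% for DR4, DR1 and C/EBP. The share of other coding genes with an RCA at an own start moved from 5.91% to 7.48% weighted to length and 6.39% weighted to start sites. The CTCF letters and these weightings were added after the data had been seen. Merging of nearby regions, a minimum width, a distance of 5 kb, the gene body only, the nearest gene only and other length bins moved no value beyond these limits. No paired analysis was possible because the lists pool the libraries of a genotype, and for the same reason no replicate could be left out. Depth is unknown, so regions near the calling limit could not be weighed.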
